A study of Mus musculus with 15 samples.

Results

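Red-fluorescent cells sorted from the embryonic mouse thalamus were compared between embryonic day (E) 18.5 and E14.5, using the 3 E18.5 red and the 3 E14.5 red arrays, 6 of the 15 arrays of the series. The members are those 6 samples, chosen by their sample titles, and no measured value chose them. All embryos were Gbx2CreER-IRES-EGFP/+::R26lsl-tdTomato/+ on a c57/BL6 background: 1 Gbx2 allele makes a tamoxifen-inducible Cre and the green protein EGFP, and Cre switches on the red protein tdTomato permanently at the Rosa26 locus. Cells that had active Cre when tamoxifen was present, and their descendants, are therefore red. The E18.5 red cells came from embryos whose mothers received 4 mg tamoxifen at E9, and the E14.5 red cells from embryos treated with 4 mg at E9.5. Each group has 3 biological replicates, and the labels do not say how many embryos were pooled for each. The sorting gates are not given in the labels. A double-labelled population is among the samples at E18.5 and not at E14.5, so whether the red gates held the same cells at both stages is not known. E18.5 green and E14.5 green cells, of the same genotype and tamoxifen days, with 3 arrays each, serve below as the comparison for what is particular to red cells. Stage and tamoxifen day change together in this comparison and cannot be told apart. The labels do not say whether the arrays of each stage were processed separately. If they were, that too could not be told apart from stage.

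The thalamus relays sensory and motor signals to the cerebral cortex. Its glutamatergic neurons arise from progenitors along the third ventricle, switch on transcription factors such as Gbx2 as they leave the cell cycle, extend axons toward the cortex and then form synapses. Gbx2 is a homeodomain factor that is on in young thalamic neurons and is later turned off in many of them.

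Levels are log2 signals of transcript clusters, on which a difference of 1 is a doubling, after quantile normalization of all 15 arrays together. As deposited, the mean signal was 6.17 to 6.19 in the E18.5 arrays and 5.63 to 5.65 in the E14.5 arrays. The median gene differed between E18.5 red and E14.5 red cells by 0.60 as deposited and by -0.03 after quantile normalization, so each change below is relative to the typical gene. The plot of differences under each scaling shows this shift. E18.5 red replicate 1 stood apart from its group, with an SD over all values of 1.34 against 1.44 and 1.45 in replicates 2 and 3, and correlated with them at a mean r of 0.937. Replicates 2 and 3 correlated with their group mates at 0.951 and 0.950, and the E14.5 red arrays at 0.984 to 0.988. The E18.5 red group was thus the more variable. The fit used 1 estimate of spread per gene for all groups, so an SE may be too small where E18.5 red arrays varied more. The E14.5 red pools differed in their sex-linked genes. Xist, the RNA of the inactive X chromosome, was at 5.74 in E14.5 red replicate 2 but 11.13 and 10.30 in replicates 1 and 3 (adjusted p between stages 0.78). The neuronal markers Tubb3 and Stmn2 and the glutamate transporter gene Slc17a6 averaged 11.71, 11.71 and 9.98 in E18.5 red cells, and 11.63, 11.51 and 9.87 in E14.5 red cells. None of these 3 passed the threshold, but without E18.5 red replicate 1 Stmn2 (0.38, adjusted p 0.0088, against 0.20) and Tubb3 (0.30, adjusted p 0.033, against 0.08) did. A further neuronal marker, Snap25, averaged 9.28 in E18.5 red and 8.83 in E14.5 red cells and passed as higher (0.45, limma adjusted p 0.017). The thalamic marker Tcf7l2 was at 11.22 to 11.58 in E18.5 red and 11.74 to 11.88 in E14.5 red cells.

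**Figure D1:**
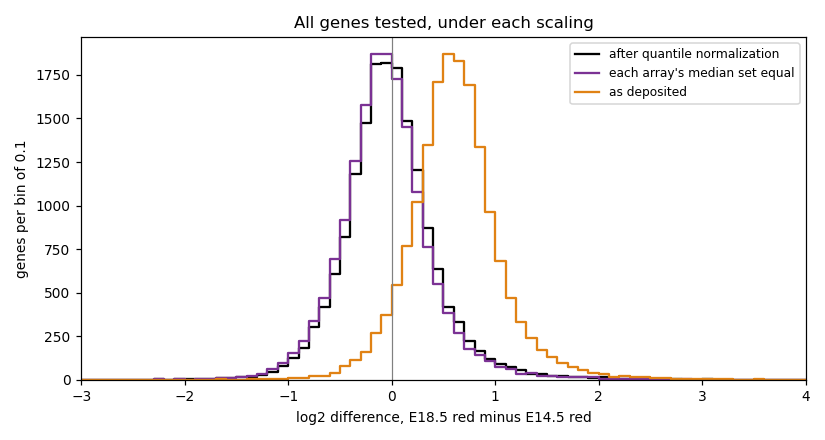
Number of genes (vertical axis) by log2 difference, E18.5 red minus E14.5 red (horizontal axis, bins of 0.1), for all 16635 genes tested under each of 3 scalings. As deposited the distribution centres near 0.60, and after quantile normalization near -0.03.

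Of 16635 genes tested, 2106 were higher in E18.5 red cells (12.7%) and 2480 were lower (14.9%) at limma's adjusted p threshold of 0.05. With a difference of at least 2-fold as well, 398 were higher (2.39%) and 210 lower (1.26%). Whatever their p-value, groups did not overlap for 3101 genes that were higher (18.6%) and 3690 that were lower (22.2%). A lack of overlap in a gene below is to be read against these shares. All 2106 rises were also rises as deposited, whereas 176 of the 2480 falls also fell as deposited and 1477 of them had a higher value at E18.5 as deposited. As deposited the median gene was 0.60 higher at E18.5, so a rise could hardly be lost there and most falls were. That comparison is therefore no support for the rises, which are also relative to the other genes. With each array's median set equal, 1470 genes rose and 2163 fell. A fall is likewise a fall relative to the other genes, and the deposited difference is given beside those discussed. Without E18.5 red replicate 1, 3803 of the 4586 calls held in the same direction. As deposited 12041 genes passed, 98.5% of them higher, and 2978 passed when the 6 red arrays were fitted alone.

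The largest rise was that of Vsnl1, a neuronal calcium sensor, which was at 9.22, 10.53 and 9.80 in E18.5 red cells and at 6.49, 6.13 and 6.40 in E14.5 red cells. It was 11.4-fold higher (log2 difference 3.51 ± 0.26 SE, limma adjusted p 8.9e-07), and all 3 E18.5 arrays lay above all 3 E14.5 arrays. Mal2, a membrane traffic protein, followed with 8.20, 9.08 and 8.98 in E18.5 red cells and 5.68, 5.76 and 5.44 in E14.5 red cells (log2 difference 3.13 ± 0.24). Cck, the precursor of the neuropeptide cholecystokinin, was at 7.92, 9.11 and 8.31 in E18.5 red cells and at 5.43, 5.38 and 5.53 in E14.5 red cells (3.00 ± 0.25). Groups did not overlap for either gene. The remaining large rises included the tetraspanin Tspan17 (2.99), the growth factor binding protein Igfbp5 (2.77), the sodium pump regulator Fxyd7 (2.73), the class I subunit B2m (2.59), the potassium channel partner Dpp10 (2.58), Brinp3 (2.53), S100a10 (2.49) and the potassium channel Kcna4 (2.46). A second transcript cluster of Kcna4 differed by -0.03. Astx5, from a multi-copy family whose members share sequence, differed by 2.38 and is uncertain.

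Lrp4, a receptor known for its role at the neuromuscular synapse, showed the largest fall. It was at 6.40, 5.61 and 5.85 in E18.5 red cells and at 8.62, 8.97 and 8.84 in E14.5 red cells (log2 difference -2.86 ± 0.18 SE, limma adjusted p 3.0e-07; -2.21 as deposited), with no overlap. Crabp2, which carries retinoic acid to its nuclear receptors, was at 7.55, 9.15 and 7.40 in E18.5 red cells and at 10.80, 10.22 and 10.42 in E14.5 red cells (-2.44 ± 0.45). The G protein subunit Gng8 (-2.26), the histone demethylases Kdm7a (-2.09) and Kdm5a (-1.65), the phosphatase Cdc14a (-1.99), Phf21b (-1.76), the zinc finger factor Zfp521 (-1.70), Rnf122 (-1.69), Dmrtb1 (-1.67), Igfbpl1 (-1.63) and the RNA-binding protein Igf2bp3 (-1.62) also fell. Each of these was lower as deposited too. Ezh2, the histone methyltransferase of Polycomb complex 2, was at 7.72, 7.40 and 7.13 in E18.5 red cells and at 9.24, 9.25 and 9.21 in E14.5 red cells (-1.82 ± 0.13; -1.22 as deposited). E18.5 double-labelled cells averaged 10.12 in Crabp2 and 8.10 in Gng8, nearer to E14.5 red (10.48 and 8.66) than to E18.5 red cells. The other genes of this paragraph averaged nearer to E18.5 red cells there, such as Lrp4 (5.71) and Ezh2 (7.37).

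**Figure D2:**
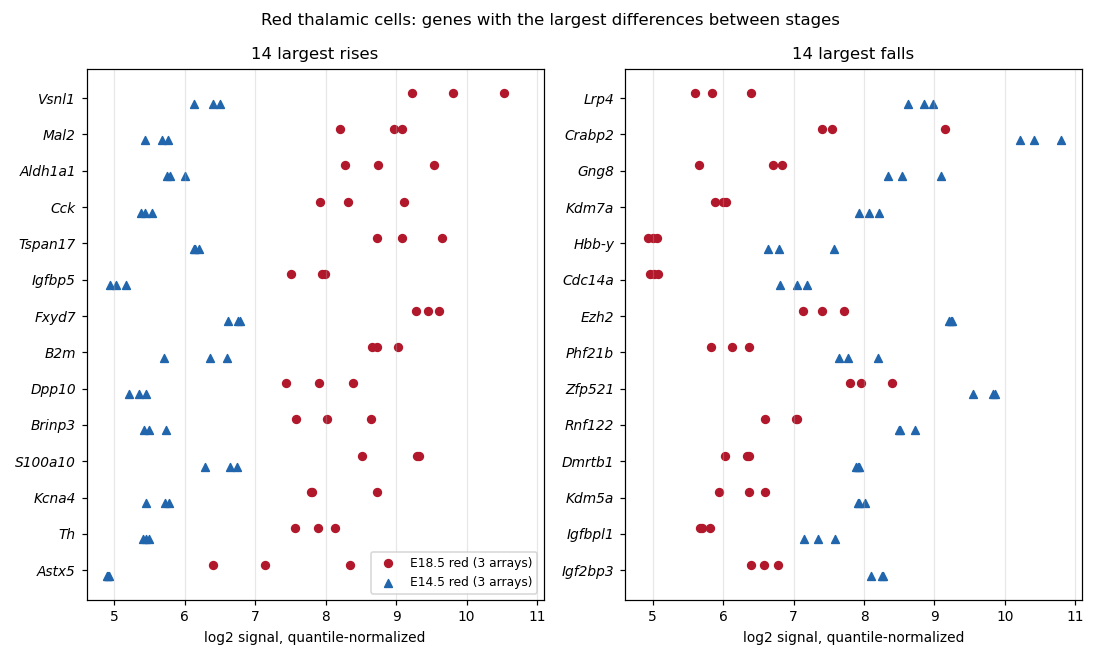
Quantile-normalized log2 signal (horizontal axis) for the 14 largest rises (left) and the 14 largest falls (right), 1 point per array, E18.5 red as circles and E14.5 red as triangles. The choice of genes required groups that do not overlap, and Crabp2 and Astx5 have the widest spread among the E18.5 arrays.

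Promoters are printed for genes that carry the cell cycle and transmitter results, as 300 bases from RefSeq on GRCm38.p6, from 250 bases before to 50 after the start of the gene, 5′ to 3′ on the gene's strand. Capitals mark exact matches, on either strand, to the letters searched: TGACGTCA (the cyclic AMP response element, CRE) in Th and Chgb, any of TTTGGCGC, TTTCCCGC, TTTCGCGC and TTTGCCGC (E2F) in Mcm7 and Ezh2, and TTTGAA (the cell cycle homology region, CHR) in Ccnb2. Th lies at chr7:142899946-142900245 on the minus strand, Chgb at chr2:132781392-132781691 on the plus strand, Mcm7 at chr5:138171834-138172133, Ezh2 at chr6:47594981-47595280 and Ccnb2 at chr9:70421505-70421804, these last on the minus strand.
Th: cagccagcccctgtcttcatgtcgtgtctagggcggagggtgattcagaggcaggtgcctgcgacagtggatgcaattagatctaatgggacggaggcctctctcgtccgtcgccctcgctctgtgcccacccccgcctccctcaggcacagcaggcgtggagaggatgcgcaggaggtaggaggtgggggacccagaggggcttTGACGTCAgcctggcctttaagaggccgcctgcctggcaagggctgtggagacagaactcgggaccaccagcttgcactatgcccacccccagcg
Chgb: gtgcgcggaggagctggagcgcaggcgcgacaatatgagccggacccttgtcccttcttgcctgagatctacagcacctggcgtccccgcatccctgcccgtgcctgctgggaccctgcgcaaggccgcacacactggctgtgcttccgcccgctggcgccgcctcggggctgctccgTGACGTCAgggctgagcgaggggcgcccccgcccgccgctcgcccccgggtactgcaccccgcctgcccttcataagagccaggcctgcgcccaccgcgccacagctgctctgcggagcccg
Mcm7: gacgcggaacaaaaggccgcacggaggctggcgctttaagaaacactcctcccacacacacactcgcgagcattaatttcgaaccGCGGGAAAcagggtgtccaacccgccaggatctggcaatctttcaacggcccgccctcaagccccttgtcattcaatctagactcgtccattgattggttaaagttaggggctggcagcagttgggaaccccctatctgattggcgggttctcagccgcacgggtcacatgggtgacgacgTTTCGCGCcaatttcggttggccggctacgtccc
Ezh2: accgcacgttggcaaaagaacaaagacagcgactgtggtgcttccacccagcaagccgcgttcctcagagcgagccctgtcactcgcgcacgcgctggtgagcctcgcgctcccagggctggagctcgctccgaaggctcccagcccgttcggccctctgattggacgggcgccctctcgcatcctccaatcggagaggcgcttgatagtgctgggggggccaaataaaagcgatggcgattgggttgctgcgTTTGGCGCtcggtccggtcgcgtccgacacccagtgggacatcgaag
Ccnb2: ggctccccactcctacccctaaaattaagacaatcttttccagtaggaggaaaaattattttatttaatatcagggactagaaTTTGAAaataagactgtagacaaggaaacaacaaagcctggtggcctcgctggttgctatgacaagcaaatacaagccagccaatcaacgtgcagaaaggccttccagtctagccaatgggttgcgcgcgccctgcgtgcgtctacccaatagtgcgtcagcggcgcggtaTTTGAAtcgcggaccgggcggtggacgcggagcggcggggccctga
Among 12906 tested genes with a promoter in the table, 3.12% held the CRE, 3.97% an E2F match and 14.7% a CHR match. E2F matches stood in 11 of the 25 DNA replication genes with a promoter, and CHR matches in 20 of the 25 mitosis genes. The CRE stood in 5 of 21 neuropeptide precursors and in 2 of 13 monoamine genes, Th and Slc18a2. These list counts may include members that were not tested. Each promoter printed was picked because it holds a match. A match describes the letters in this window only.

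The monoamine list holds genes of monoamine transmission and also transcription factors such as En1. In E18.5 red cells 10 of its 15 tested members rose and 0 fell (9 and 1 with array medians set equal). The median log2 difference was 0.80, against -0.03 for all genes. En1, among those that rose, was at 7.03, 5.68 and 5.58 in E18.5 red cells, highest in replicate 1. It was at 5.49, 5.21 and 5.17 in E14.5 red cells (limma adjusted p 0.040). The transcription factor Pitx3 did not pass (0.11, adjusted p 0.67). Th, tyrosine hydroxylase, which carries out the first step toward dopamine and whose promoter is shown above, was at 8.13, 7.89 and 7.56 in E18.5 red cells and at 5.50, 5.45 and 5.41 in E14.5 red cells (2.41 ± 0.12 SE, adjusted p 5.6e-08). The dopamine transporter Slc6a3 was at 7.77, 7.91 and 7.42 in E18.5 red cells and at 5.61, 5.37 and 5.16 in E14.5 red cells (2.32 ± 0.14). Neither gene's groups overlapped. Aldh1a1, a retinaldehyde dehydrogenase also known from dopamine neurons, was at 9.54, 8.27 and 8.74 in E18.5 red cells and at 5.74, 6.00 and 5.79 in E14.5 red cells (3.00 ± 0.24). The serotonin transporter Slc6a4 was at 6.13, 7.88 and 6.07 in E18.5 red cells and at 4.86, 4.83 and 4.77 in E14.5 red cells (1.87 ± 0.38), so replicate 2 stood above its group mates. Ddc, which makes dopamine and serotonin (0.88), the degrading enzyme Maoa (1.24) and the nuclear receptor Nr4a2 (1.16) rose too. The vesicular monoamine transporter Slc18a2 averaged 9.89 in E18.5 red and 10.35 in E14.5 red cells and did not pass (adjusted p 0.25). E18.5 double-labelled cells averaged 6.04 in Th, 6.12 in Slc6a3, 6.31 in Aldh1a1, 5.53 in Ddc and 6.57 in Nr4a2, nearer to E14.5 red cells. They averaged 6.73 in Slc6a4 and 7.66 in Maoa, nearer to E18.5 red cells.

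Neuropeptide and granule genes rose in 10 of 25 tested cases and fell in 2 (median 0.41). Vgf, a secreted granule protein, was at 9.83, 9.07 and 9.27 in E18.5 red cells and at 7.55, 7.36 and 6.99 in E14.5 red cells (2.09 ± 0.18, adjusted p 3.7e-06), without overlap. Scg2 (1.21), Penk, the enkephalin precursor (1.01), and Chgb (0.93) were higher, and the granule protein Scg3 was lower (-0.99; -0.45 as deposited, not past the threshold there). Of the calcium-binding proteins, 7 of 16 rose and 1 fell, among them Necab1 (1.37) and Calb2, calretinin (0.77).

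Of 35 synaptic vesicle and release genes tested, 21 rose and 0 fell (median 0.45), and 11 rose and 1 fell with array medians set equal. The calcium sensor of release, Syt1, was at 10.63, 10.59 and 10.30 in E18.5 red cells and at 9.06, 9.03 and 9.12 in E14.5 red cells (1.43 ± 0.11, adjusted p 1.7e-06). Unc13c (1.95), which primes vesicles, Syn2 (1.69), which tethers them, and the small GTPase Rab3a (1.04) also rose. Glutamate receptor genes rose in 13 of 31 cases and fell in 1 (median 0.32; 9 and 0 with array medians set equal), with Grin3a (1.73), Grm5 (1.47), Grm7 (1.39), the AMPA receptor partner Gsg1l (1.24) and the AMPA subunit Gria4 (1.21). GABA and glycine receptor genes rose in 7 of 18 cases and fell in 0 (median 0.33), and 4 rose with array medians set equal. Gabra5, a GABA-A subunit, was at 7.69, 8.56 and 8.32 in E18.5 red cells and at 5.82, 5.73 and 6.33 in E14.5 red cells (2.23 ± 0.28). Slc12a5, the chloride exporter on which inhibition by GABA depends, rose by 1.12 and Gabra3 by 0.93. Gabrg1 was at 5.80, 8.12 and 8.08 in E18.5 red cells and at 5.44, 5.62 and 5.68 in E14.5 red cells, so its rise (1.75, adjusted p 0.016) came from replicates 2 and 3 and lost the call without either of them (adjusted p 0.066 and 0.070), as also without E14.5 red replicate 1 (0.052).

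Potassium channel genes rose in 16 of 39 cases and fell in 2 (median 0.32; 15 and 0 with array medians set equal), including the A-type channel Kcnd2 (2.83-fold) and the M-current subunit Kcnq3 (1.95-fold). Sodium channel genes rose in 3 of 7 cases, with the leak channel Nalcn (0.91) and the auxiliary subunit Scn3b (0.83). Calcium and HCN channel genes rose in 3 of 18 cases, a share near that of all genes, with Hcn3 (1.14) and Cacnb2 (0.85) among them. A second cluster of Cacnb2 differed by -0.39.

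Of 23 cadherins and protocadherins, which join cells by calcium-dependent contacts, 17 rose and 0 fell (median 0.96), and 9 rose with array medians set equal. Cdh7 was at 7.97, 8.34 and 7.96 in E18.5 red cells and at 5.72, 5.77 and 6.01 in E14.5 red cells (2.26 ± 0.23, adjusted p 1.7e-05). Cdh12 (1.41), Pcdh10 (1.11) and Cdh13 (1.10) rose as well. Of 36 synaptic adhesion genes 20 rose and 0 fell (median 0.70). Cntnap5a was at 7.72, 8.23 and 8.08 in E18.5 red cells and at 5.99, 5.81 and 5.96 in E14.5 red cells (2.09 ± 0.14), and Cntn1 was at 9.48, 9.38 and 9.41 in E18.5 red cells and at 7.42, 7.29 and 7.44 in E14.5 red cells (2.04 ± 0.13). The groups did not overlap in either. Cntnap2 (1.79), Lrrtm3 (1.70) and the neuroligin Nlgn1 (1.17) were higher too. On the postsynaptic side, 13 of 24 genes rose and 1 fell (median 0.56), with the kinase Camk2b (1.34) and the scaffolds Dlgap1 (1.07) and Dlg4 (0.91). Tubulins, neurofilaments and microtubule proteins rose in 5 of 24 cases and fell in 1 (median 0.10), but 3 rose and 3 fell with array medians set equal (median -0.15). Nefl (0.89) and Tubb2a (0.85) were higher, and the intermediate filament Ina was lower (-0.47; -0.06 as deposited).

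**Figure D3:**
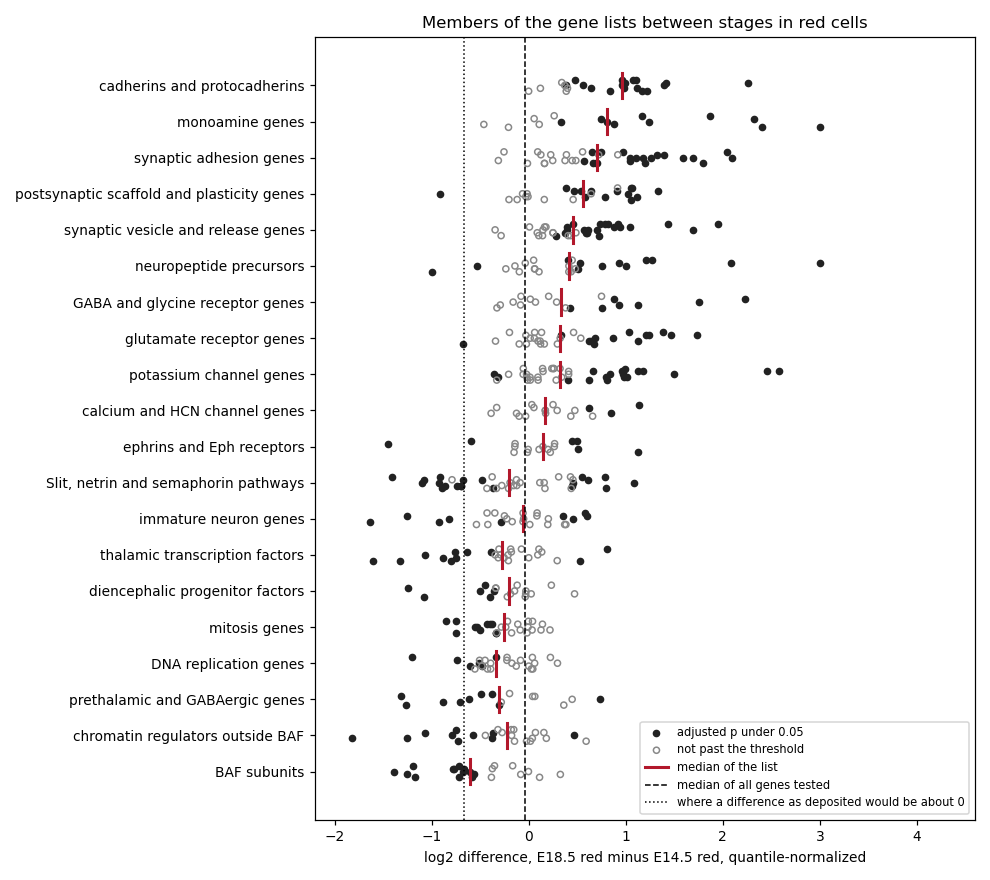
Log2 difference, E18.5 red minus E14.5 red (horizontal axis), of each tested member of 20 gene lists, filled where limma's adjusted p is under 0.05, with the list median as a bar. The dashed line is the median of all genes tested, and the dotted line is about where a difference is 0 as deposited.

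Axon guidance genes moved both ways. Ephrins and Eph receptors rose in 4 of 17 cases and fell in 2, and 2 rose and 1 fell with array medians set equal. Epha3 was at 8.75, 8.80 and 9.05 in E18.5 red cells and at 10.25, 10.49 and 10.21 in E14.5 red cells (-1.45 ± 0.18; -0.95 as deposited), and Epha5 was at 8.66, 9.06 and 9.02 in E18.5 red cells and at 7.68, 8.05 and 7.63 in E14.5 red cells (1.12 ± 0.20). The 2 receptors thus moved in opposite directions without overlap. Efna5, an ephrin ligand, rose by 0.45 (adjusted p 0.048), a call lost when any 1 red array other than E18.5 red replicate 1 was left out (adjusted p 0.087 to 0.16). Without E18.5 red replicate 1, 1 gene of this family fell. In the Slit, netrin and semaphorin pathways 7 of 38 genes rose and 13 fell (median -0.20; 0.35 as deposited), and 4 rose and 10 fell with array medians set equal. The ligand Sema5a fell by 1.40 (-0.75 as deposited), while the Slit receptor Robo1 (-1.08), the netrin receptors Dcc (-0.92) and Unc5c (-0.74) and the plexin Plxnb1 (-0.89) were lower but did not pass as deposited. Flrt2, a ligand of Unc5 receptors, rose by 1.09.

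Among thalamic transcription factors, 2 of 26 rose and 9 fell (median -0.27; 0.30 as deposited, where 10 rose and 2 fell), and 1 rose with array medians set equal. Gbx2 was at 6.13, 6.90 and 5.23 in E18.5 red cells and at 7.72, 7.75 and 7.62 in E14.5 red cells (-1.61 ± 0.28 SE, adjusted p 9.8e-04; -0.95 as deposited). All E18.5 arrays lay below all E14.5 arrays, and a second Gbx2 cluster differed by -0.76. EGFP is made from the Gbx2 locus, so a sort on green fluorescence bears on this gene directly. Ebf1 fell by 1.33 (-0.75 as deposited). Plagl1 (-1.07), Bcl11a (-0.88), Id4 (-0.76), Lhx2 (-0.74) and Tcf7l2 (-0.39) were lower and did not pass as deposited. Lhx2 groups overlapped, and its call was lost without any 1 of 5 red arrays (adjusted p 0.066 to 0.17) but not without E18.5 red replicate 1. Tcf7l2 lost its call without E14.5 red replicate 2 (adjusted p 0.053) and Plagl1 without E14.5 red replicate 1 (0.055). E18.5 double-labelled cells averaged 8.11 in Gbx2, 8.73 in Bcl11a, 8.35 in Lhx2 and 11.78 in Tcf7l2. These levels were nearer to E14.5 red cells (7.69, 8.71, 8.24 and 11.80) than to E18.5 red cells. Ebf1 (8.02), Id4 (8.37) and Plagl1 (6.95) averaged nearer to E18.5 red cells there (7.99, 8.33 and 6.53). Not every fall was therefore shared by the E18.5 double-labelled cells. The Notch target Hes1 rose by 0.81. Lhx9, Rora, Foxp2 and Prox1 did not pass, with differences of -0.35, -0.31, -0.31 and 0.09, but were at 0.20, 0.29, 0.24 and 0.64 as deposited, where Prox1 passed (adjusted p 0.034). Of 9 habenula genes 2 rose and 2 fell. The rises were those of the nicotinic subunit Chrnb3 (1.76) and of Nr4a2 (1.16), already given with the monoamine genes. The Wnt inhibitor Wif1 (-1.17; -0.49 as deposited) was lower. Chrnb3 averaged 6.52 in E18.5 red and 4.77 in E14.5 red cells. It passed the filter that dropped genes with a mean under 5.06 only through E18.5 red cells. Prethalamic and GABAergic genes fell in 8 of 15 cases and rose in 1 (median -0.31; 0.34 as deposited). Isl1 (-1.32) and Meis2 (-1.27) fell, also as deposited, Lhx1 (-0.88) did not pass as deposited, and the vesicular GABA transporter Slc32a1 rose by 0.73, though a second cluster differed by 0.13.

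DNA replication genes fell in 6 of 25 cases and rose in 0 (median -0.34; 0.31 as deposited). Mcm7, a subunit of the replicative helicase, was at 5.73, 5.98 and 5.49 in E18.5 red cells and at 6.90, 6.87 and 7.05 in E14.5 red cells (-1.21 ± 0.13; -0.52 as deposited), without overlap. Gins1 was lower by -0.74, and did not pass as deposited. Mitosis genes fell in 11 of 26 cases and rose in 0 (median -0.26; 0.37 as deposited), with Smc2 (-0.86), Ccnb2 (-0.75) and Cdk1 (-0.55), none of which passed as deposited. Cdk1 averaged 4.74 in E18.5 red and 5.28 in E14.5 red cells, near the limit of 5.06 for dim genes. The proliferation markers Mki67, Top2a and Ube2c averaged 5.42, 5.32 and 5.35 in E18.5 red cells and 5.75, 5.10 and 5.44 in E14.5 red cells, and none passed. Without E18.5 red replicate 1 Mki67 passed (-0.52, adjusted p 0.017, against -0.33). As deposited Top2a (0.82, adjusted p 0.0025) and Ube2c (0.56, adjusted p 0.0044) passed as higher in E18.5 red cells. Diencephalic progenitor factors fell in 6 of 18 cases and rose in 0 (median -0.20; 0.45 as deposited), Neurog2 (-1.25) and Olig3 (-1.08) among them, both lower as deposited. Of 22 radial glia and Notch genes 4 rose and 6 fell, and 2 rose without E18.5 red replicate 1 or with array medians set equal. Prom1 (-1.20) and the Notch ligand Jag1 (-0.99) fell, also as deposited, and Sox1 (-1.01) and Nes (-0.93) did not pass as deposited. Fabp7, a fatty acid binding protein of radial glia, was at 10.09, 9.42 and 9.20 in E18.5 red cells and at 8.62, 7.64 and 8.45 in E14.5 red cells (1.33 ± 0.39, adjusted p 0.020). Its adjusted p was 0.064 without E18.5 red replicate 1 and 0.092 without E14.5 red replicate 2. Immature neuron genes rose in 4 of 26 cases and fell in 5, near the shares of all genes (12.7% and 14.9%), and 1 rose with array medians set equal. Rnd3 (-1.26), Nhlh2 (-0.93) and Sox11 (-0.82) did not pass as deposited, and Nrep (0.60) and Marcks (0.58) were higher.

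Subunits of the BAF chromatin remodelling complex fell in 13 of 21 cases and rose in 0 (median -0.60), but as deposited 4 fell and 5 rose (median -0.04). Smarce1 was at 6.16, 6.23 and 6.18 in E18.5 red cells and at 7.53, 7.68 and 7.53 in E14.5 red cells (-1.39 ± 0.11; -0.71 as deposited). Smarca4, the ATPase, was at 9.39, 8.94 and 9.08 in E18.5 red cells and at 10.32, 10.54 and 10.29 in E14.5 red cells (-1.25 ± 0.12; -0.74 as deposited). Neither overlapped. Dpf2 fell by 1.19, also as deposited, and Arid1a (-0.78) did not pass there. Of 24 other chromatin regulators 9 fell and 1 rose (median -0.23; 0.37 as deposited), with Tet2 (-1.25) and Satb1 (-1.07) lower, also as deposited. Neuronal RNA-binding and splicing genes rose in 7 of 28 cases and fell in 8 (4 rose with array medians set equal), the splicing factor Mbnl1 being higher (0.80), Celf3 lower (-1.01, also as deposited), and Elavl1 lower (-0.82) without passing as deposited.

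Igf and imprinted growth genes rose in 3 of 19 cases, a share near that of all genes (12.7%), and fell in 6 (14.9% of all genes). The receptor Igf1r was at 7.27, 6.93 and 6.82 in E18.5 red cells and at 8.44, 8.48 and 8.32 in E14.5 red cells (-1.40 ± 0.11; -0.79 as deposited), with no overlap, and the cell cycle inhibitor Cdkn1c (-0.81) did not pass as deposited. Oxidative phosphorylation genes rose in 6 of 23 cases and fell in 0 (median 0.02), Uqcrc1 (0.60) among them, but 1 rose with array medians set equal (median -0.16). Ppargc1a, a regulator of mitochondrial genes, rose by 0.79. Of 19 ribosomal protein genes 1 rose and 4 fell, and Rpl22 (-0.85) did not pass as deposited. Of the 13 retinoic acid genes 2 rose and 2 fell, near the shares of all genes. Immediate early and stress genes rose in 3 of 17 cases, a share near that of all genes, and fell in 0. Without E18.5 red replicate 1 or with array medians set equal, 1 rose. Jun (0.83) had an adjusted p of 0.069 without that array, 0.063 without E14.5 red replicate 2 and 0.060 without E14.5 red replicate 3.

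Markers of other cell types were mostly dim. The mean level of the microglia list was 5.37 to 5.48 in E18.5 red and 5.30 to 5.38 in E14.5 red cells, and that of the endothelial and pericyte list 5.13 to 5.24 in E18.5 red and 5.09 to 5.15 in E14.5 red cells. The meninges and choroid plexus list averaged 5.16 to 5.21 in E18.5 red and 5.17 to 5.21 in E14.5 red cells. All 3 lists lay under the median of all genes, 5.74. Of the astrocyte list, 4 of 14 tested genes rose and 2 fell, and its mean level was 5.52 to 5.82 in E18.5 red cells, highest in replicate 1, and 5.46 to 5.57 in E14.5 red cells. Gfap and Aqp4 stayed under 5.7 on every red array. Sparcl1 was at 8.35, 6.52 and 6.71 in E18.5 red cells and at 5.62, 5.33 and 5.46 in E14.5 red cells (1.72, adjusted p 0.0086). Slc4a4 rose by 0.82, and Slc1a2 (-0.88) did not pass as deposited. Of 9 oligodendrocyte lineage genes 1 rose, Olig1 (0.86), and 1 fell, and of 9 microglia genes 1 rose, C1qa (0.49). The shares that rose in the oligodendrocyte lineage and microglia lists were near that of all genes (12.7%). In the astrocyte list the share was larger. Hbb-y, an embryonic globin, was at 5.01, 5.06 and 4.93 in E18.5 red cells and at 7.58, 6.64 and 6.79 in E14.5 red cells (adjusted p 5.0e-06; -1.36 as deposited), without overlap. The erythroid list averaged 4.98 to 5.03 in E18.5 red cells and 5.41 to 5.66 in E14.5 red cells. The part of these cell types in the other results was not tested, and fewer cells of a type cannot be told apart from less RNA per cell in sorted pools.

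Whether the changes differed from those of green cells was tested as the change between stages in red cells minus that in green cells. In green cells 2591 genes rose (15.6%) and 3052 fell (18.3%). The change differed for 198 genes (1.19%), 104 with a higher change in red cells (0.625%) and 94 with a lower one (0.565%), and in 68 of them the changes had opposite signs. The count of 198 was 128 without E14.5 red replicate 2, 128 without E18.5 green replicate 1, 100 without E14.5 green replicate 2, 115 without E14.5 green replicate 3, and 470 without the E18.5 red and double-labelled replicates numbered 1. Th averaged 7.86 in E18.5 red and 5.45 in E14.5 red cells, and its change in green cells was 0.28, so that the changes differed by 2.12 (limma adjusted p 1.1e-04). The change was also higher in red cells for Slc6a3 (2.23, adjusted p 1.1e-04), Aldh1a1 (2.60, adjusted p 0.0014) and Chrnb3 (1.66, adjusted p 5.3e-04), none of which passed in green cells. Chrnb3 averaged 6.52 in E18.5 red and 4.77 in E14.5 red cells, and 4.95 in E18.5 green and 4.85 in E14.5 green cells. It passed the filter on dim genes (mean of at least 5.06) only through E18.5 red cells. Its low level in the other groups is therefore not separate from that filter. Cck rose by 3.00 in red cells and by 1.05 in green cells (adjusted p 0.0048 in green), and its changes differed by 1.96 (adjusted p 0.012). Foxa1, a forkhead factor, rose by 1.28 in red cells and fell by 0.65 in green cells, and Fabp7 rose by 1.33 in red cells and fell by 1.21 in green cells (adjusted p of the difference 0.0022 and 0.037).

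A second set of genes changed in green cells and little or less in red cells. Olig3, a progenitor factor, fell by 1.08 in red cells and by 3.97 in green cells, and the changes differed by 2.89 (adjusted p 1.1e-04). Slit2, a secreted axon repellent, averaged 6.80 in E18.5 red and 6.92 in E14.5 red cells, against 6.97 in E18.5 green and 9.27 in E14.5 green cells. St18 fell by 0.37 in red cells (0.22 as deposited, the opposite sign) and by 2.23 in green cells, and Abcd2 fell by 0.44 in red cells (0.14 as deposited, the opposite sign) and by 2.44 in green cells. In red cells alone each of these 2 calls was lost without any 1 of 4 arrays (adjusted p 0.054 to 0.15 for St18 and 0.056 to 0.11 for Abcd2). Of 26 mitosis genes 25 fell in green cells (median -0.91), and the change was higher in red than in green cells for 10, among them Top2a (2.02, adjusted p 9.8e-04), Ube2c (1.92), Mki67 (1.51) and Cdk1 (1.18). Cdk1 also passed the filter on dim genes only through E14.5 green cells (6.53, against 4.81 in E18.5 green cells). Top2a averaged 5.32 in E18.5 red and 5.10 in E14.5 red cells, against 5.24 in E18.5 green and 7.04 in E14.5 green cells, so E14.5 green cells were the highest of these 4 groups.

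Several neuronal genes had a lower change in red than in green cells. Calb2 averaged 7.30 in E18.5 red and 6.54 in E14.5 red cells, and its rise was 0.77 in red and 3.72 in green cells, a difference of -2.95 (adjusted p 1.1e-04). Necab1 rose by 1.37 in red and 3.43 in green cells. The synaptic adhesion gene Lrfn5 rose by 0.69 in red and 2.62 in green cells, and the GABA-B receptor subunit Gabbr2 by 0.43 in red and 1.95 in green cells. The rise of Gabbr2 in red cells was lost without any 1 of 3 arrays, E18.5 red replicate 2 and E14.5 red replicates 1 and 3 (adjusted p 0.061 to 0.072). Cacng3, an AMPA receptor auxiliary subunit, differed by 0.02 in red cells and rose by 2.25 in green cells. Ripor2 was lower by -0.84 in red cells (-0.24 as deposited) and rose by 1.48 in green cells. Of the synaptic adhesion genes 6 of 36 had a lower change in red cells and 0 a higher one, and of the monoamine genes 3 of 15 had a higher change and 0 a lower one. Prox1, a homeodomain factor, differed by 0.09 in red cells and rose by 1.87 in green cells (difference -1.77, adjusted p 0.0074).

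**Figure D4:**
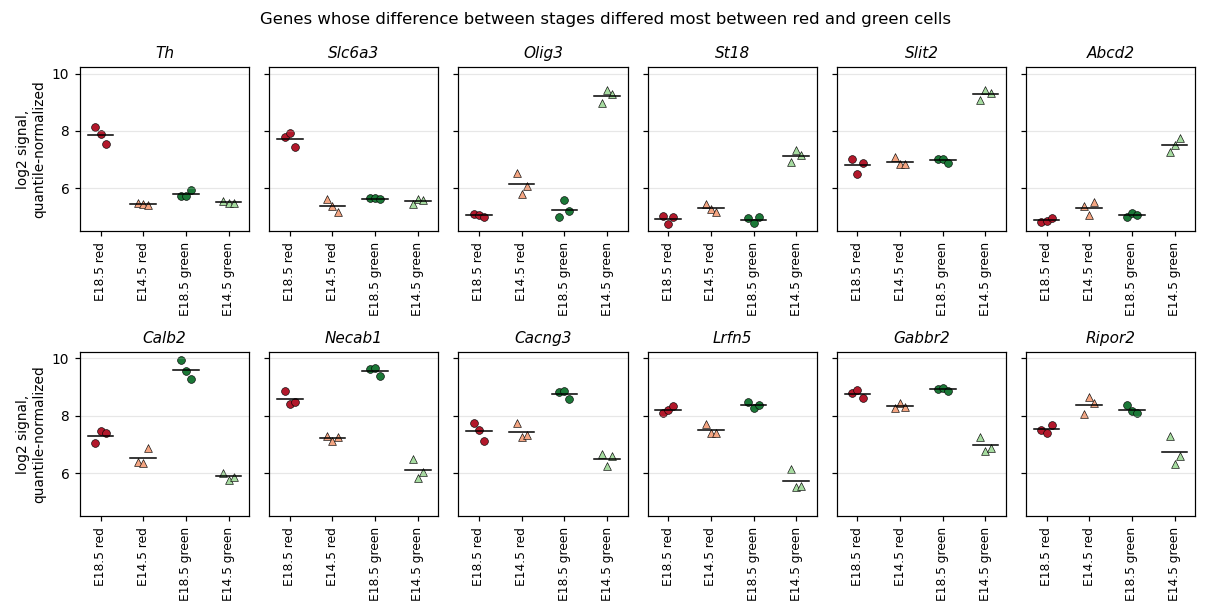
Quantile-normalized log2 signal (vertical axis) in E18.5 red, E14.5 red, E18.5 green and E14.5 green cells, 1 point per array and a bar at the mean of 3, for the 6 genes with the smallest adjusted p in each direction. Th and Slc6a3 are high only in E18.5 red cells among these 4 groups, whereas Olig3, St18, Slit2 and Abcd2 are highest in E14.5 green cells.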

How the data were processed

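Log2 signals of 33794 Affymetrix transcript clusters on 15 arrays were deposited by the authors, made in Affymetrix Expression Console per the submitters' processing notes; the version and algorithm are not given in the sources used here. Per the labels, 10 ng of RNA was amplified before hybridization. All arrays were quantile-normalized together. Clusters naming 1 gene (23521) were kept, the brightest cluster stood for each gene, and the dimmest 25% of genes (mean under 5.06) were dropped, leaving 16635. The 5 group means were fitted on the 15 arrays in limma 3.58.1 (R 4.3.3), two-sided, with Benjamini-Hochberg adjustment over all genes tested and a threshold of 0.05. On simulated data the fit called 82% of genes raised by a log2 difference of 1, 76% of genes lowered by 1, 27.2% at 0.5 and 0.0365% of unchanged genes. Few genes were changed in the simulation, and the noise of a gene was the same in every group. In the data 27.6% of genes passed and E18.5 red replicate 1 stood apart, so these rates may not hold for them. The number of arrays limits the precision.

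Members and lists were chosen with earlier results of these data known. Named were Gbx2, the 14 largest rises and 14 largest falls (past the threshold also without E18.5 red replicate 1, without overlap, predicted genes and multigene receptor families left out), at most 6 members of each list, taken by adjusted p, up to 6 interaction genes per direction, and marker genes. After the values were seen, the list members in the text were narrowed from that rule, and falls were kept only where the deposited difference was also negative; they therefore do not show how often a fall holds as deposited. Aldh1a1, Foxa1, Fabp7 and Prox1 in the comparison with green cells, and the proliferation markers, were singled out after their values were seen. Same-numbered red arrays of E18.5 and E14.5 correlated at -0.40 to 0.31, so the numbers were not taken as pairs between stages. Within E14.5, Xist was at 11.13, 5.74 and 10.30 in red replicates 1 to 3. In green replicates 1 to 3 it was at 10.78, 5.08 and 10.45, so same-numbered red and green arrays went together in this gene. The main fit of red minus green did not use the numbers within a stage. With them as a block its count of 198 became 313, and 360 as a random block. Alternatives were the scaling, the filter, the mean of clusters, the 6 red arrays alone, variance weights, a variance trend, replicate blocks and leaving out arrays. Promoters came from RefSeq. Figures were drawn in matplotlib 3.10.9.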

Additional observations from a re-analysis of the deposited data

Results flagged for a closer look

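Not counting the proliferation markers and Prox1, 29 of the genes named changed differently from E14.5 to E18.5 in red and green cells. The test was of the difference itself (limma, adjusted p under 0.05). Values are the log2 change in red cells minus that in green cells. The change was higher in red cells for Th (2.12), Slc6a3 (2.23), Olig3 (2.89), St18 (1.87), Slit2 (2.18), Abcd2 (2.00), Chrnb3 (1.66), Aldh1a1 (2.60), Cdk1 (1.18), Foxa1 (1.94), Unc5c (1.18), Gsg1l (1.36), Prom1 (0.96), Efna5 (1.28), Cck (1.96) and Fabp7 (2.55). It was lower in red cells for Calb2 (-2.95), Necab1 (-2.06), Cacng3 (-2.24), Lrfn5 (-1.93), Gabbr2 (-1.53), Ripor2 (-2.32), Kcnd2 (-1.19), Lrrtm3 (-0.93), Grm5 (-1.46), Hbb-y (-1.42), Syn2 (-1.32), Flrt2 (-0.79) and Ppargc1a (-0.89). Top2a (2.02), Ube2c (1.92) and Mki67 (1.51), with a higher change in red cells, and Prox1 (-1.77), with a lower one, also passed. Genes were not picked at random, so their number says nothing of how common such differences are, and what brought them about was not tested. Chrnb3, St18, Abcd2 and Cdk1 passed the filter on dim genes only through the group where each was high. Their differences are therefore not separate from that filter.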

How the results depend on the processing

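The 4586 calls between E18.5 red and E14.5 red cells became 12041 as deposited (98.5% higher, against 45.9%) and 3633 with each array's median set equal (40.5% higher), and 2978 when the 6 red arrays were fitted alone. The 608 calls of at least 2-fold became 2443 as deposited and 560 with medians set equal, 56.1% of these 560 being higher against 65.5%. Leaving out 1 array gave 3417 to 4824 calls, 574 to 717 at least 2-fold, and 100 to 241 for the change in red minus that in green cells, against 198. That last count was 128 without E14.5 red replicate 2, 128 without E18.5 green replicate 1, 100 without E14.5 green replicate 2, 115 without E14.5 green replicate 3 and 470 without the 2 arrays that stood apart, E18.5 red and E18.5 double-labelled number 1. With the replicate number within each stage as a block it was 313, and 360 as a random block; the calls between stages were 4869, 5473 and 4573 under the replicate blocks. The cause of these shifts was not tested. St18 and Abcd2, lower in red cells, were higher as deposited (0.22 and 0.14). Of the 210 genes that the naming rule gives and that passed, 92 fell, and 23 of these falls had the opposite sign as deposited. The list falls in the text were kept only where that sign was the same, so their direction says nothing of stability. Of the results in the text 27 lost the call as deposited, and 10 with medians set equal. Lhx2 and Efna5 each lost it when any 1 red array other than E18.5 red replicate 1 was left out. The number of arrays limits small differences. In simulated data 27.2% of differences of 0.5 were called in either direction, but few genes were changed there and all groups had the same noise.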
